A study of Arabidopsis thaliana with 8 samples.

Results

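The seedling transcriptomes of clf-28 and swn-7, Arabidopsis thaliana lines that each lack 1 of a pair of related Polycomb genes, were set against each other directly. The contrast used the 2 clf-28 arrays and the 2 swn-7 arrays, 4 of the 8 ATH1 arrays of the study, and no wild-type array entered the difference itself. The spread behind its p-values was estimated from all 8 arrays. clf-28 is a T-DNA insertion allele of CURLY LEAF (CLF) and swn-7 one of SWINGER (SWN), each a single line. The clf-28 swn-7 double mutant and the wild type (Columbia), with 2 arrays each, give the context. All 4 genotypes were whole plants of growth stage 1.03, bulked, kept cold as seeds for 3 days and grown in tissue culture at an average of 23 °C and 70% humidity. Plants of clf-28, swn-7 and wild type were 10 days old, and those of the double mutant 12 days. In the double mutant against wild type, age and genotype therefore cannot be told apart, while clf-28 and swn-7 were of the same age. The labels do not state that a genotype's 2 arrays hold separately grown seedlings, so p-values measure the spread between these samples only, and it may be technical.

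CLF and SWN encode the catalytic subunits of Polycomb repressive complexes, which methylate lysine 27 of histone H3 and so keep target genes silent. CLF is known for silencing flowering and floral homeotic genes in leaves, and its loss gives small plants with curled leaves. SWN overlaps with CLF in function, and plants that lack both turn into callus-like masses that form somatic embryos. The comparison asks which transcripts depend on CLF rather than SWN, and which on SWN rather than CLF. No probe set could be assigned to CLF or SWN with the annotation at hand, and their own transcripts were not analysed here.

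The signal of a probe set is its brightness on the linear scale of the deposited table, set to a floor of 10 where it was lower. Of 22746 probe sets, 17332 lay above the floor on at least 2 of the 8 arrays and were tested. The 2 clf-28 arrays correlated at 0.986 across probe sets and the 2 swn-7 arrays at 0.975, and 161 and 357 probe sets lay at least 2-fold apart within these genotypes. The 4 pairs of a clf-28 with a swn-7 array correlated at 0.970 to 0.977, with 420 to 749 probe sets at least 2-fold apart. Within wild type the arrays correlated at 0.958 with 1059 probe sets at least 2-fold apart, farther apart than any clf-28 and swn-7 pair, and within the double mutant 554 were. Probe sets are not independent replicates, and these correlations carry no p-value. In whole seedlings, fewer cells of a type and less RNA per cell cannot be told apart.

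A single swn-7 array stood apart in its plastid transcripts. The 69 probe sets of plastid-encoded genes had a median signal of 703 and 429 on the clf-28 arrays, against 892 and 72.9 on the swn-7 arrays, with 454 and 625 in the double mutant and 1129 and 969 in wild type. swn-7 replicate 2 was thus the lowest of all 8 arrays and swn-7 replicate 1 lay above both clf-28 arrays. The median log2 difference of clf-28 minus swn-7 was 0.82 over these 69 probe sets, and it was -0.63 without swn-7 replicate 2 and 2.20 without swn-7 replicate 1. None of the 69 passed the threshold described next, 1 had an unadjusted limma p below 0.05, and 3 (4.35%) had no overlap between clf-28 and swn-7, against 41.2% of all tested probe sets. These 3 were rpoA, psbM and ndhC, which encode subunits of the plastid RNA polymerase, photosystem II and the plastid NAD(P)H dehydrogenase, and all 3 were lower in clf-28 with limma adjusted p of 0.515, 0.640 and 0.665. rpoA had signals of 922 and 784 in clf-28, against 1571 and 1255 in swn-7. The part of swn-7 replicate 2 in other results was not tested beyond leaving it out.

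**Figure D1:**
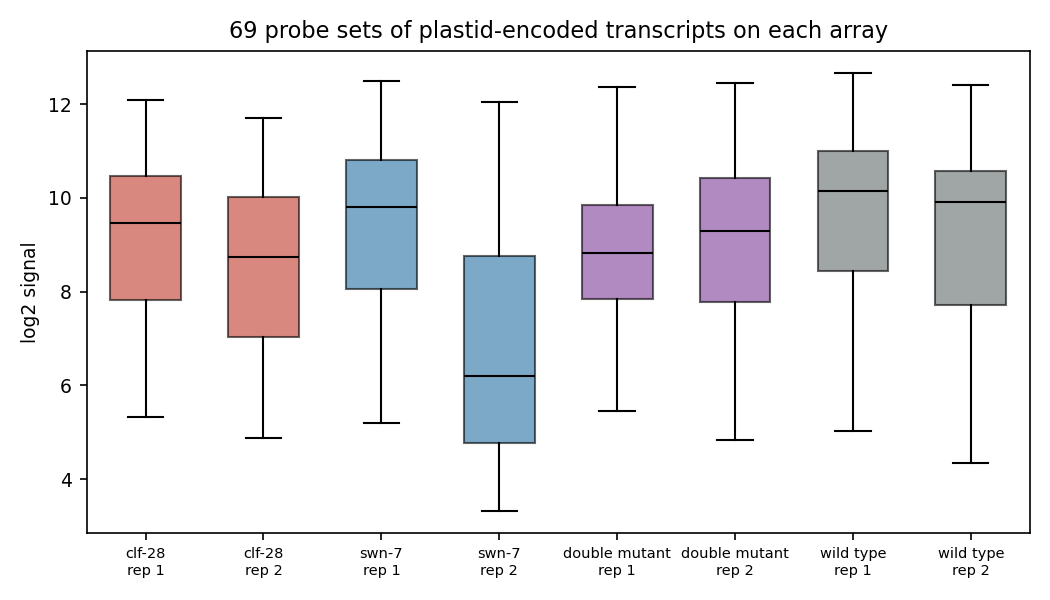
Log2 signal of the 69 probe sets of plastid-encoded transcripts (y axis) on each of the 8 arrays (x axis). Boxes span the quartiles, the line is the median and whiskers reach the lowest and highest probe set. swn-7 replicate 2, with a median signal of 72.9, lies below the other 7 arrays.

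Few probe sets were called between clf-28 and swn-7, and nearly all that were called were higher in clf-28. The limma fit called 18 probe sets at an adjusted p below 0.05, 0.104% of those tested. Of these, 17 were higher in clf-28 (0.0981% of those tested) and 1 was lower (0.00577%). The 18 comprised 8 named genes and 10 probe sets without a name in the annotation. An unadjusted limma p below 0.05 was reached by 1512 probe sets, 8.72%, and the median log2 difference over all probe sets was 0.01. All 18 differed at least 2-fold and had no overlap between the clf-28 and swn-7 arrays. Because the 4 genotypes shared 1 estimate of the spread, the other arrays bore on the calls: without both wild-type arrays 24 probe sets were called, 14 of them among the 18. A fit to the 4 clf-28 and swn-7 arrays alone, which leaves fewer degrees of freedom, called 0 probe sets with limma, with an unadjusted p below 0.05 for 2122. Leaving out single arrays gave between 3 calls, without swn-7 replicate 2, and 24, and 3 of the 18 probe sets passed in all 8 such fits.

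**Figure D2:**
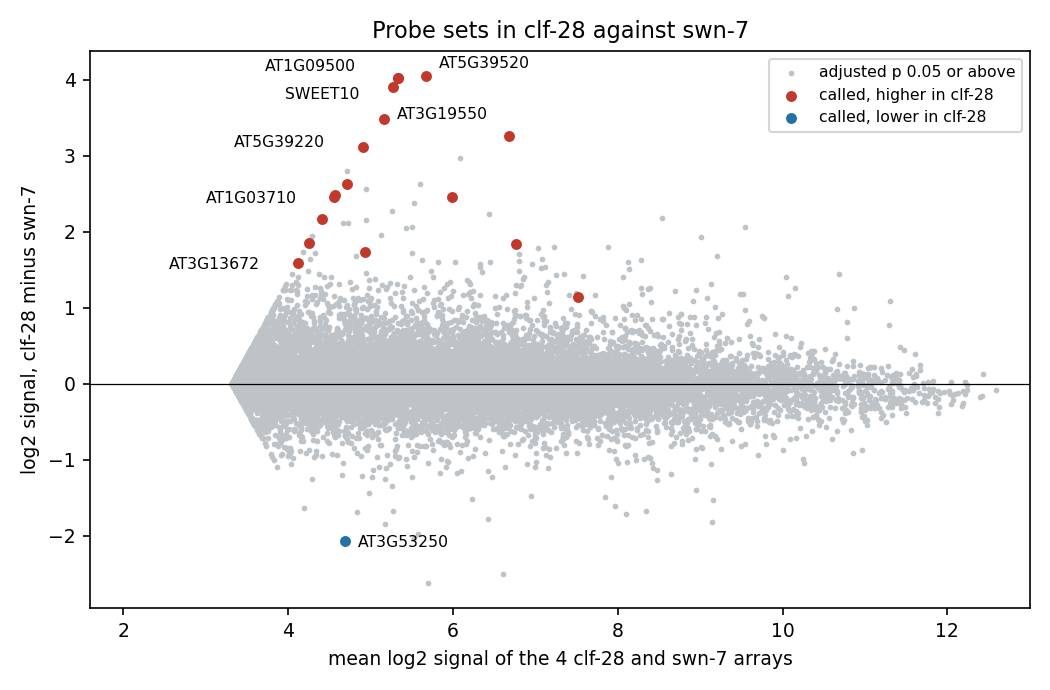
Log2 difference of clf-28 minus swn-7 (y axis) against the mean log2 signal of the 4 arrays (x axis) for the 17332 probe sets tested. The 17 probe sets called higher in clf-28 are red, the 1 called lower is blue and the other probe sets are grey. The called probe sets lie toward low and middle signals.

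SWEET10, which encodes a sugar transporter of the SWEET family, had signals of 158 and 143 in clf-28, against the floor on both swn-7 arrays, with the floor and 12.8 in the double mutant and the floor on each wild-type array. Only the clf-28 arrays were high, and they did not overlap with any other array. The level of SWEET10 in clf-28 was at least 15-fold that in swn-7 (log2 3.91, SE 0.19, n = 2 arrays each, limma adjusted p = 6.48e-04). It passed in all 8 fits that left out an array, and missed the threshold with no floor (limma adjusted p = 0.130).

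AT3G19550 had signals of 111 and 130.3 in clf-28, against 10.8 and 10.6 in swn-7, 16.3 and 12.4 in the double mutant and 12.2 and 13.7 in wild type. Both clf-28 arrays stood far above the other 6, and both swn-7 arrays were the lowest of the 8. The gene was 11.2-fold higher in clf-28 (log2 3.49, SE 0.21, limma adjusted p = 0.00160), and it missed the threshold without swn-7 replicate 2 (limma adjusted p = 0.0621). AT5G39520 had signals of 158 and 273 in clf-28, against the floor and 15.8 in swn-7, 11.8 and the floor in the double mutant and 19.9 and 26.6 in wild type. Again only clf-28 was high, and swn-7 and the double mutant lay below both wild-type arrays. Its level in clf-28 was at least 16.5-fold that in swn-7 (log2 4.05, SE 0.34, limma adjusted p = 0.00755), a call made in 3 of the 8 fits with an array left out. It was lost without clf-28 replicate 2 or without any 1 of the swn-7 and double-mutant arrays, where the adjusted p reached 0.139. These 3 genes had low levels in the double mutant. The double mutant was at least 2.12-fold below wild type for AT5G39520 (log2 -1.08, SE 0.34, limma adjusted p = 0.0347). It did not pass for SWEET10 (log2 0.18, limma adjusted p = 0.475) or AT3G19550 (log2 0.14, limma adjusted p = 0.618).

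Another 3 genes were high in both genotypes that lack CLF. AT1G09500 had signals of 159.9 and 166 in clf-28, against the floor on both swn-7 arrays, 142 and 115 in the double mutant and 13.6 and 17.1 in wild type. swn-7 lay below wild type, while clf-28 and the double mutant lay above it. Its level in clf-28 was at least 16.3-fold that in swn-7 (log2 4.03, SE 0.21, limma adjusted p = 8.37e-04), a call made in all 8 fits with an array left out. In the double mutant it was 8.41-fold higher than in wild type (log2 3.07, SE 0.21, limma adjusted p = 3.60e-05).

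AT5G39220 had signals of 74.0 and 105 in clf-28, against 10.4 and the floor in swn-7, 113 and 87.7 in the double mutant and 14.4 and 12.1 in wild type. clf-28 and the double mutant spanned the same range, and swn-7 was lowest. The difference was at least 8.68-fold (log2 3.12, SE 0.25, limma adjusted p = 0.00652), and the call needed the same 5 arrays as for AT5G39520, with adjusted p of up to 0.129 when 1 was left out. AT1G03710 had signals of 53.8 and 58.5 in clf-28, against the floor on both swn-7 arrays, 90.7 and 91.7 in the double mutant and the floor on both wild-type arrays. Here the double mutant was above clf-28, and the other 4 arrays were at the floor. Its level in clf-28 was at least 5.61-fold that in swn-7 (log2 2.49, SE 0.18, limma adjusted p = 0.00422), and the call was not made when clf-28 replicate 2 or either swn-7 array was left out, with adjusted p of up to 0.0823. The double mutant was 7.56-fold above wild type for AT5G39220 (log2 2.92, SE 0.25, limma adjusted p = 9.98e-05) and at least 9.12-fold for AT1G03710 (log2 3.19, SE 0.18, limma adjusted p = 1.24e-05).

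AT3G13672, listed in RefSeq with the synonym SINA2, lay on both sides of wild type in the single mutants. Its signals were 30.1 and 30.1 in clf-28, against the floor on both swn-7 arrays, 15.9 and 16.1 in the double mutant and 21.6 and 19.5 in wild type. The order was clf-28, wild type, double mutant and swn-7, with no overlap between neighbours, and all levels were low. Its level in clf-28 was at least 3.01-fold that in swn-7 (log2 1.59, SE 0.16, limma adjusted p = 0.02), and this was no longer called when any clf-28 or swn-7 array was left out, with adjusted p of up to 0.211, with floors of 5 and 20 and with no floor (limma adjusted p = 0.0539, 0.155 and 0.0889), and with the replicate number as a block (0.0631). The double mutant did not pass against wild type (log2 -0.36, limma adjusted p = 0.0985).

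**Figure D3:**
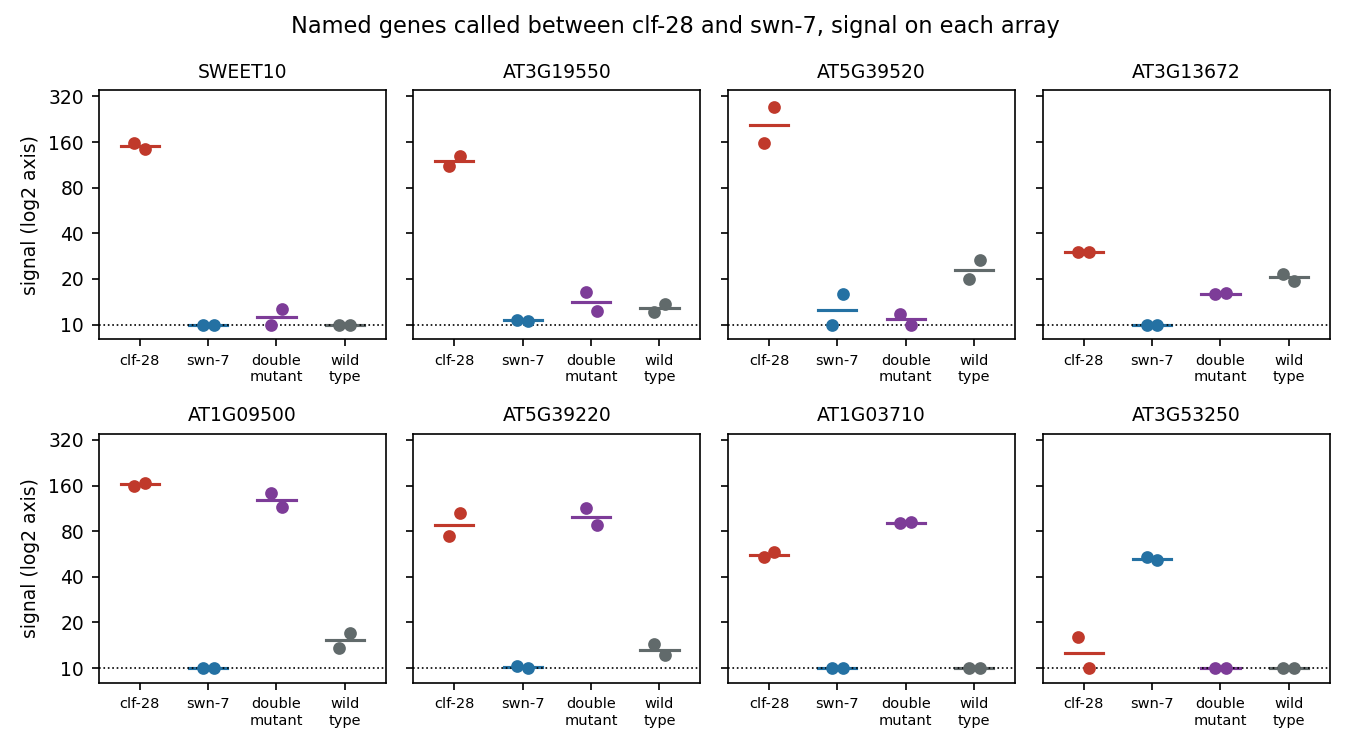
Signal on each array (y axis, log2 spaced) of the 8 named genes called between clf-28 and swn-7, by genotype (x axis). Points are arrays, horizontal lines are geometric means of 2 arrays and the dotted line is the floor of 10. SWEET10, AT3G19550 and AT5G39520 were high only on the clf-28 arrays, AT1G09500, AT5G39220 and AT1G03710 were high in clf-28 and the double mutant, and AT3G53250 was high only in swn-7.

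The reverse pattern was called for 1 gene. AT3G53250, the small auxin upregulated RNA gene SAUR57 in RefSeq, had signals of 15.9 and the floor in clf-28, against 53.7 and 51.8 in swn-7, and was at the floor on all 4 arrays of the double mutant and wild type. Only the swn-7 arrays were clearly above the floor. It was at least 4.18-fold lower in clf-28 than in swn-7 (log2 -2.06, SE 0.23, limma adjusted p = 0.0334). With an array left out it passed only when that array was clf-28 replicate 1, at a limma adjusted p of 0.0302. In the other 7 fits its adjusted p reached 0.262. It also missed the threshold with a floor of 5 and with no floor (0.178 and 0.390) and with the replicate number as a block (0.0644).

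Further genes were at least 2-fold apart without overlap and did not pass. The 3 nearest to the threshold on the higher side were bZIP44, FMO and AT3G28500. bZIP44, a basic leucine-zipper transcription factor, had signals of 157 and 169.8 in clf-28, against 77.7 and 65.5 in swn-7, 169 and 162 in the double mutant and 102 and 104 in wild type (log2 1.2, SE 0.15, limma adjusted p = 0.0538). swn-7 was lowest, and clf-28 overlapped with the double mutant. FMO, a flavin monooxygenase, had 284 and 345 in clf-28, against 116 and 118 in swn-7, 903 and 1026 in the double mutant and 209 and 157 in wild type (log2 1.42, SE 0.18, limma adjusted p = 0.0538). AT3G28500 had 116 and 94.6 in clf-28, against 26.7 and 15.3 in swn-7, 359.8 and 515 in the double mutant and 23.8 and 26.9 in wild type (log2 2.38, SE 0.31, limma adjusted p = 0.0617). For FMO and AT3G28500 the double mutant was the highest genotype, and its difference from wild type passed (log2 2.41 and 4.09, limma adjusted p = 5.05e-05 and 5.27e-05).

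On the lower side, 29 further genes with 1 name were at least 2-fold below swn-7 without overlap and did not pass. The 9 with the lowest p had log2 differences of -1.84 to -1.06 and limma adjusted p of 0.111 to 0.193. AT4G16146 had signals of 96 and 98 in clf-28, against 205 and 215 in swn-7, 123 and 148 in the double mutant and 117 and 156 in wild type (log2 -1.11, SE 0.18, limma adjusted p = 0.111). The double mutant and wild type overlapped, and clf-28 and swn-7 lay on either side of them. AT2G15830 had 22.7 and 19.5 in clf-28, against 48.5 and 50.6 in swn-7, 13 and the floor in the double mutant and 14.1 and 16.3 in wild type (log2 -1.23, SE 0.20, limma adjusted p = 0.119). Here both single mutants lay above wild type, swn-7 further than clf-28.

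For 6 of these 9 genes the double mutant passed as lower than wild type, and for AT3G60290 it passed as higher. Over all tested probe sets, 21.5% passed as lower and 25.2% as higher in the double mutant. AT1G07050, AT3G16660, AT3G12900, AT5G57760 and AT2G47880 were at the floor on both double-mutant arrays. AT5G57760 had signals of 58.1 and 37.4 in clf-28, against 132 and 193 in swn-7 and 54.2 and 90.06 in wild type, so that both swn-7 arrays lay above wild type and both double-mutant arrays below it. AT3G59780 had 64.7 and 85.04 in clf-28, against 232 and 184 in swn-7, 23.61 and 19.8 in the double mutant and 289 and 172 in wild type. swn-7 overlapped with wild type here, and clf-28 and the double mutant were below. AT3G60290 had 16 and the floor in clf-28, against 29.7 and 30.9 in swn-7, 31.8 and 31.4 in the double mutant and 18.3 and 16.1 in wild type, so that swn-7 and the double mutant were both high.

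The 10 called probe sets without a name were all higher in clf-28, by log2 1.15 to 4.03, or 2.21-fold to at least 16.3-fold. The one with the lowest p of all probe sets, 254595_at, had signals of 159.8 and 166 in clf-28, against the floor on both swn-7 arrays, 74.5 and 70.5 in the double mutant and the floor on both wild-type arrays (log2 4.03, SE 0.18, limma adjusted p = 6.48e-04), and it passed in all 8 fits with an array left out. With no floor, 254595_at missed the threshold (limma adjusted p = 0.0704). The double mutant lay between clf-28 and the other 2 genotypes. 264872_at was bright in clf-28, with 307 and 327, against 29.1 and 37.6 in swn-7, 108 and 169 in the double mutant and 26 and 42.7 in wild type (log2 3.26, SE 0.31, limma adjusted p = 0.0148). It passed only in the 2 fits that left out a wild-type array, with adjusted p of up to 0.298 in the others. Of the 10, 5 passed as higher in the double mutant than in wild type, 1 as lower and 4 did not pass. The matching shares over all tested probe sets were 25.2%, 21.5% and 53.3%. However, 254595_at, 246279_at, 263988_at and 265983_at were at the floor on both wild-type arrays and could not pass as lower. The lower one, 267129_at, had 145 and 155 in clf-28, against 28.1 and 26.2 in swn-7, the floor and 12.4 in the double mutant and 21.5 and 23.4 in wild type (log2 2.46, SE 0.20, limma adjusted p = 0.00652). It missed the threshold when any clf-28 or swn-7 array was left out, with adjusted p of up to 0.129.

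The wild-type arrays show on which genotype a difference rests. A probe set was placed on the clf-28 side where both clf-28 arrays lay outside the wild-type range and not both swn-7 arrays did, and on the swn-7 side in the opposite case. Of the 18 called probe sets, 9 were on the clf-28 side, 1 on the swn-7 side and 8 outside wild type in both mutants. The 17 higher in clf-28 thus had 0 on the swn-7 side alone, and the 1 lower, AT3G53250, was on that side. Of the 8 outside in both, 7 had clf-28 and swn-7 on opposite sides of wild type and 1 on the same side, a split that was 499 and 3584 over all tested probe sets. A call needs a large difference between clf-28 and swn-7, which by itself favours opposite sides. No conclusion is drawn from setting the 2 splits side by side. Over all tested probe sets, 3492 (20.1%) were on the clf-28 side, 2787 (16.1%) on the swn-7 side, 4083 outside in both and 6970 (40.2%) in neither. These placements use the clf-28 and swn-7 arrays of the contrast and a wild-type range from 2 arrays that lie far apart for many probe sets, and they are a description. Of the 18, 8 had both swn-7 arrays at the floor and 3 had 1, and 6 were at the floor on the 4 swn-7 and wild-type arrays. These 6 could pass the filter on dim probe sets only through clf-28 or the double mutant.

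A wider description took every probe set at least 2-fold apart with no overlap, whether or not it passed. There were 267 such probe sets, 1.54% of those tested, of which 208 were higher in clf-28 (1.2%) and 59 lower (0.34%). The share that was higher was 77.9%, against 67.5% after scaling to equal medians (172 higher and 83 lower) and 66.0% with quantile normalization (167 and 86). None of the 267 was plastid-encoded. Wild type lay between clf-28 and swn-7 for 125 of the 208 and 35 of the 59, against 4645 (26.8%) of all tested probe sets. The 267 were chosen for a wide gap between clf-28 and swn-7, and a wider gap holds wild type more often. No conclusion is drawn from this excess. Of the 208, 84 were on the clf-28 side, 47 on the swn-7 side, 68 outside wild type in both mutants and 9 in neither. Of the 59, 8 were on the clf-28 side, 18 on the swn-7 side, 27 outside in both and 6 in neither.

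In these sets 23 genes had a symbol other than a locus number. They were picked after the values were seen, and SWEET10 alone among them passed. Apart from SWEET10, bZIP44 and FMO, 12 were higher in clf-28. ALC, the bHLH factor ALCATRAZ of fruit opening, had signals of 71.7 and 58.8 in clf-28, against 13.2 and 16.1 in swn-7, 124 and 97.0 in the double mutant and 30.4 and 19.1 in wild type (log2 2.16, SE 0.29, limma adjusted p = 0.0632). BGLU45, a beta-glucosidase of lignin precursors, had 75.3 and 73.9 in clf-28, against 11.9 and 13.5 in swn-7 (log2 2.56, SE 0.34, limma adjusted p = 0.0632). UGT76E12, a UDP-glucosyl transferase, had 70.1 and 68.8 in clf-28, against the floor on both swn-7 arrays (at least 6.94-fold, log2 2.80, SE 0.38, limma adjusted p = 0.0689). All 3 had the highest mean in the double mutant and the lowest in swn-7, with the clf-28 and swn-7 arrays far apart.

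The other 9 higher ones had limma adjusted p of 0.133 to 0.607. JAL23, a jacalin-related lectin, had signals of 35.4 and 36.9 in clf-28, against the floor on both swn-7 arrays, the floor and 12.3 in the double mutant and 101.2 and 26.4 in wild type. Its swn-7 and double-mutant arrays were low and its wild-type arrays far apart. TBL38 of the trichome birefringence-like family had 163 and 193 in clf-28, against 67.8 and 76.9 in swn-7, 88.1 and 87.4 in the double mutant and 223 and 99.8 in wild type, again with a spread wild type. SCPL43, a serine carboxypeptidase-like gene, was above the floor only in clf-28, with 31.7 and 19.4. The glutamate receptor gene GLR2.7, DFR of anthocyanin synthesis, AGL24, EXPA7, HRGP1 and CCOAMT made up the rest. HRGP1 was read from a shared probe set, a type that may also pick up related genes.

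The 8 lower ones included genes of cold response, chlorophyll synthesis and defence, none of which passed. PORB, a protochlorophyllide oxidoreductase that makes chlorophyll precursors in the light, had signals of 716 and 1017 in clf-28, against 1841 and 1673 in swn-7, 153 and 246 in the double mutant and 1451 and 1665 in wild type (log2 -1.04, SE 0.26, limma adjusted p = 0.313). clf-28 lay between the double mutant and the other 2 genotypes. P1R1 had 55.6 and 38.1 in clf-28, against 101.03 and 104 in swn-7, 18 and 11.4 in the double mutant and 86.7 and 88.4 in wild type (log2 -1.15, SE 0.28, limma adjusted p = 0.294), with clf-28 again in between. MSRB6, a methionine sulfoxide reductase, had 86.7 and 78.9 in clf-28, against 165 and 177 in swn-7, 253 and 169.7 in the double mutant and 208 and 359 in wild type, so that clf-28 was the lowest of the 4 genotypes.

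PDF1.4, a plant defensin gene, had signals of 37.8 and 14.5 in clf-28, against 46.4 and 67.4 in swn-7, 490.1 and 655 in the double mutant and 69.3 and 79.8 in wild type (log2 -1.26, SE 0.43, limma adjusted p = 0.448). Both single mutants were below wild type and the double mutant far above it. COR27, a cold-regulated gene, had 44.5 and 43.4 in clf-28, against 81.2 and 121 in swn-7, 173 and 133 in the double mutant and 45.4 and 62.7 in wild type (log2 -1.17, SE 0.26, limma adjusted p = 0.269). Here clf-28 was close to wild type, and swn-7 and the double mutant were higher.

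The difference of the double mutant from wild type holds none of the 4 arrays of the contrast, but its calls rest on the spread that all 8 arrays share, so they are not independent of the contrast. It called 8089 probe sets (46.7%), of which 4369 were higher (25.2% of those tested) and 3720 lower (21.5%). Of the 17 called higher in clf-28, 8 were higher in the double mutant (47.1%), 2 lower (11.8%) and 7 not called. Among these 17, 6 were at the floor on the 4 swn-7 and wild-type arrays. These 6 could not be called lower in the double mutant, and passed the filter only through clf-28 or the double mutant. No conclusion is drawn from the shares of the 17. Of the 208 at least 2-fold higher, 59 were higher in the double mutant (28.4%), 52 lower (25.0%) and 97 not called, which is close to the shares over all probe sets. Of the 59 at least 2-fold lower, 7 were higher (11.9%), 37 lower (62.7%) and 15 not called. The share of lower calls among these was 40.8% to 61.9% when the sets were drawn without 1 of the 4 arrays, against 21.5% over all probe sets. Of the 8 on the clf-28 side all were lower in the double mutant, and of the 18 on the swn-7 side 11 were. The sides are set by the same 2 wild-type arrays that enter the double mutant's difference from wild type. High wild-type arrays push a probe set towards both outcomes, so no conclusion is drawn from this split. None of the 59 had a swn-7 array at the floor, while 1165 of all tested probe sets had both there. Probe sets near the floor have little room for a lower call, so the shares are not like for like. These shares carry no test, and the probe sets are not independent.

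**Figure D4:**
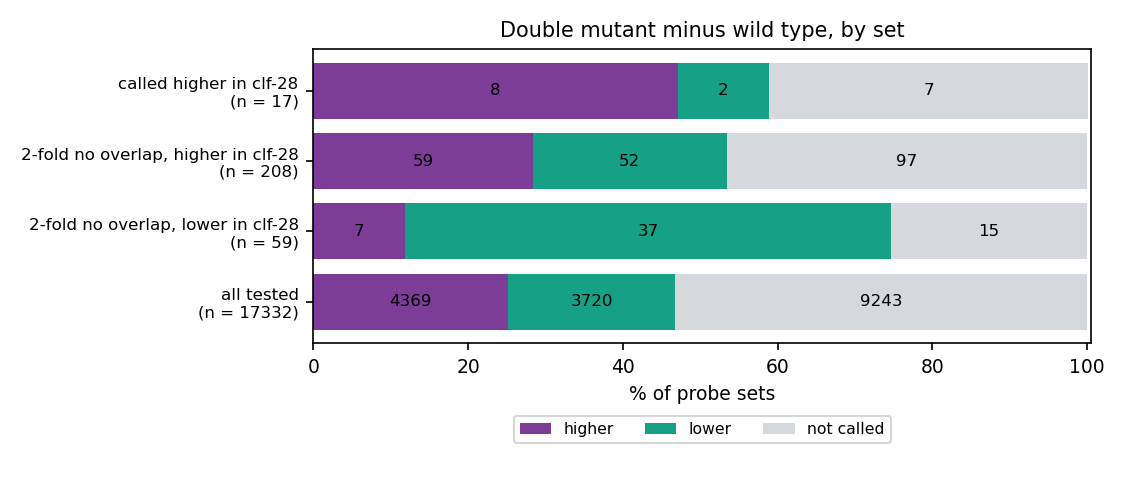
Share of probe sets (x axis, percent) that were higher, lower or not called in the double mutant against wild type, for 3 sets from clf-28 against swn-7 and for all tested probe sets. Numbers in the bars are probe sets. Lower calls make up 62.7% of the 59 probe sets lower in clf-28 and 21.5% of all 17332. The sets differ in how many probe sets lie at the floor, which limits lower calls.

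Lists of genes for tissues and pathways of the seedling were counted in the same fit, in which 0.104% of all probe sets were called. The 20 lists hold 287 loci, of which 48 were measured under a name, and 1 member, SWEET10, was called. For 4 lists (meristem and boundary, iron and phosphate starvation, heat shock, cell cycle) 0 members were measured.

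Of 23 flowering-time entries 3 were measured and 0 passed, with a median log2 difference of 0.68, against 0.01 over all probe sets. AGL24, a MADS-box promoter of flowering, had signals of 41.7 and 43.7 in clf-28, against 20.4 and 18.6 in swn-7, 146 and 110.2 in the double mutant and 31.0 and 22.4 in wild type (log2 1.13, SE 0.24, limma adjusted p = 0.255). The single mutants lay on either side of wild type and the double mutant was highest. AGL19, a MADS-box promoter of flowering known as a Polycomb target, had 17.1 and 15.1 in clf-28, against the floor on both swn-7 arrays, 12.4 and the floor in the double mutant and 11.1 and the floor in wild type (log2 0.68, SE 0.16, limma adjusted p = 0.289), close to the floor throughout. GI, which links the circadian clock to flowering, had 114 and 91.5 in clf-28, against 146 and 149 in swn-7 (log2 -0.53, limma adjusted p = 0.623). AGL42 was the only floral MADS-box entry measured, of 18 (log2 0.48, limma adjusted p = 0.713).

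Of the 17 SWEET entries 13 were measured, and SWEET10 alone passed. The family had a median log2 difference of 0.00, with 5 members positive, 5 negative and 3 at 0. SWEET1 had signals of 135 and 149 in clf-28, against 63.9 and 79.7 in swn-7, 243 and 251 in the double mutant and 56.5 and 66.4 in wild type (log2 0.99, SE 0.17, limma adjusted p = 0.143). SWEET2 had 151 and 164 in clf-28, against 86.6 and 119 in swn-7, the floor and 11.2 in the double mutant and 80.2 and 96.1 in wild type (log2 0.63, SE 0.22, limma adjusted p = 0.451). Both were highest in clf-28 among the single mutants and wild type, without overlap, and in the double mutant against wild type SWEET1 was higher (log2 2.01, limma adjusted p = 1.01e-04) and SWEET2 lower (log2 -3.05, limma adjusted p = 4.20e-05).

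Cold-regulated genes had a median log2 difference of -0.53 over the 4 of 15 entries measured, with 0 calls. COR15A and COR15B encode proteins that protect chloroplast membranes in the cold. COR15A had signals of 296 and 192 in clf-28, against 575 and 422 in swn-7, 47.0 and 106 in the double mutant and 596 and 513 in wild type (log2 -1.05, SE 0.39, limma adjusted p = 0.492). COR15B had 339 and 155 in clf-28, against 626 and 487 in swn-7, 11.7 and the floor in the double mutant and 418 and 342 in wild type (log2 -1.27, SE 0.35, limma adjusted p = 0.357). clf-28 was below wild type for both, with no overlap, but its 2 arrays were far apart. LTI30, a dehydrin, had a positive difference (log2 0.34, limma adjusted p = 0.867).

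Of the defence list 2 of 18 entries were measured. PDF1.2b, a defensin gene, had signals of the floor and 10.7 in clf-28, against 27.3 and 38.2 in swn-7, 119 and 98.4 in the double mutant and the floor and 33.5 in wild type (log2 -1.64, SE 0.51, limma adjusted p = 0.413). The wild-type arrays were as far apart as clf-28 and swn-7. PDF1.2b was read from a shared probe set, a type that may also pick up related genes. PDF1.2 was also lower in clf-28, at or near the floor (log2 -0.79, limma adjusted p = 0.459). Among 15 flavonoid entries 3 were measured, with 0 calls and a median of 0.57. DFR had 31.2 and 32.1 in clf-28, against 17.2 and 11.3 in swn-7, 17.9 and 17.36 in the double mutant and 34.2 and 47.6 in wild type (log2 1.18, SE 0.26, limma adjusted p = 0.268). clf-28 was nearer to wild type and swn-7 nearer to the double mutant. UF3GT, a flavonoid glycosyltransferase, was at the floor on both swn-7 arrays and had 14.5 and 15.2 in clf-28.

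ULT1, a trithorax-group factor that opposes Polycomb silencing and the only one of 20 entries measured in the Polycomb machinery list, had signals of 34.0 and 41.6 in clf-28, against 64.1 and 69.0 in swn-7, 212 and 239 in the double mutant and 164 and 71.2 in wild type (log2 -0.82, SE 0.36, limma adjusted p = 0.578). Both single mutants were below wild type. BCAT4 of glucosinolate synthesis (log2 0.50, limma adjusted p = 0.585) was the only member measured of that list. The 4 measured auxin genes had a median of -0.26, and IAA29, an auxin response repressor, had 119 and 146 in clf-28, against 278 and 223 in swn-7, 11.1 and the floor in the double mutant and 30.3 and 205 in wild type (log2 -0.92, limma adjusted p = 0.833). The wild-type arrays were so far apart that they spanned both clf-28 arrays.

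**Figure D5:**
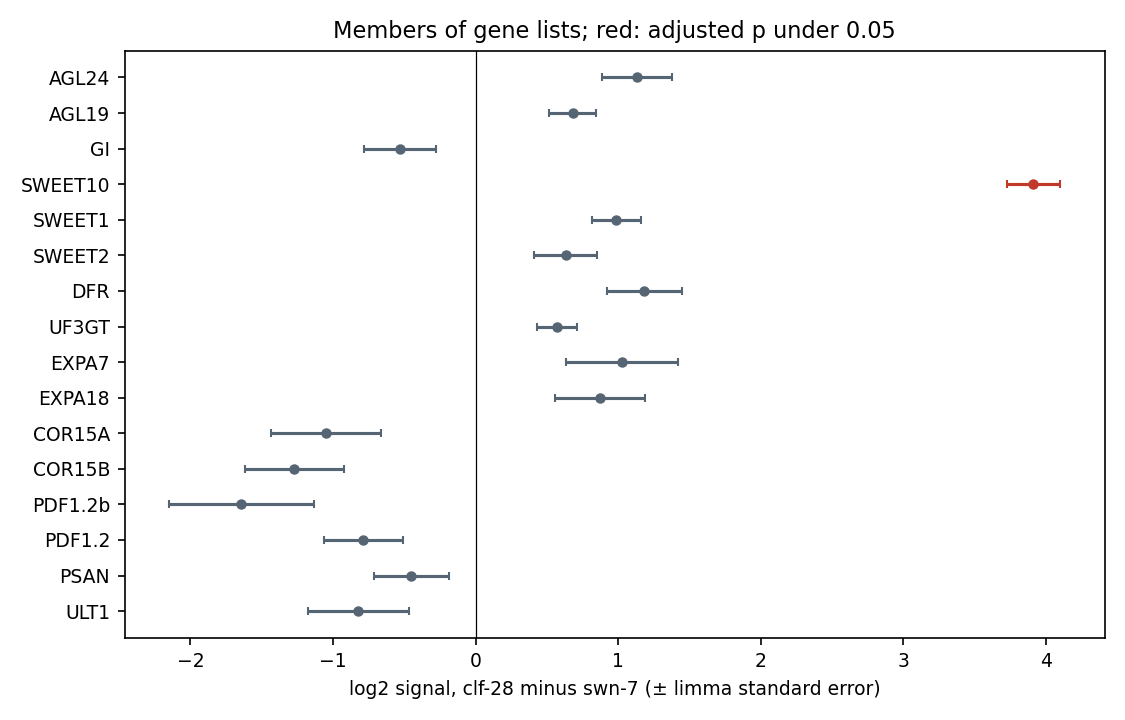
Log2 difference of clf-28 minus swn-7 (x axis) with limma's standard error for 16 members of the gene lists (y axis). Red marks an adjusted p under 0.05. SWEET10, at 3.91, is the only one that passed, and COR15A, COR15B and the defensin genes lie below 0.

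Of the markers of tissues that whole seedlings can hold, 0 passed. All 6 measured nuclear photosynthesis genes, of 24 entries, had log2 differences below 0, from -0.45 to -0.14, and their summed signal was 16692 and 16002 on the clf-28 arrays, against 22142 and 16487 on the swn-7 arrays. The sums overlapped, since swn-7 replicate 2 lay between the clf-28 arrays. PSAN, a subunit of photosystem I, had 1909 and 2119 in clf-28, against 3158 and 2394 in swn-7, 113 and 192 in the double mutant and 3039.9 and 3011 in wild type (log2 -0.45, SE 0.26, limma adjusted p = 0.716).

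The root hair expansin genes EXPA7 and EXPA18, the 2 root markers measured of 13, had a summed signal of 67.0 and 111 in clf-28, against 35.2 and 58.7 in swn-7, 23.4 and 20 in the double mutant and 47.2 and 52.2 in wild type. EXPA7 differed by log2 1.03 (SE 0.39, limma adjusted p = 0.508) and EXPA18 by 0.87 (SE 0.32, limma adjusted p = 0.481). Neither passed, and clf-28 was the highest of the 4 genotypes for both. The part of root tissue in the other differences was not tested. EMS1 of the anther list was low in all genotypes (log2 0.29, limma adjusted p = 0.798).

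The measured genes of the embryo and seed lists did not pass. OLEO3, an oil body protein, and BBM, an embryo regulator, were at the floor on all 4 clf-28 and swn-7 arrays. In the double mutant OLEO3 had 2146 and 2079.7 and BBM 66.8 and 54.6. PAP85, a seed storage protein, had 16.9 and 18.1 in clf-28, against the floor on both swn-7 arrays, 4552 and 3518 in the double mutant and 19.0 and 57.9 in wild type (log2 0.81, SE 0.46, limma adjusted p = 0.705). The single mutants lay below wild type for PAP85. BZIP53, a regulator of seed genes, had 339 and 401 in clf-28, against 391 and 322 in swn-7 (log2 0.05, and -0.0056 after scaling to equal medians).

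The 3 measured reference transcripts had a median log2 difference of 0.01, which was -0.05 with equal medians and -0.01 with quantile normalization. The 13 mitochondrial probe sets had a median of 0.06, which was -0.003 and -0.013 under these scalings, and 0 passed.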

How the data were processed

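Whole seedlings of 4 genotypes were measured on 8 ATH1 arrays, 2 per genotype, with RNA from a Qiagen kit and biotin labelling, per the labels' protocols. The deposited intensities are linear signals, 1 per probe set and array, for 22810 probe sets. The submitters' processing notes list MAS5 and GCOS; no version is given in the sources used here. The mean after trimming, with 2% left out at each end, was 100.0 on every array, and no further scaling was applied.

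The 64 control probe sets were left out, signals were floored at 10 and log2 was taken. The 17332 of 22746 probe sets that exceeded the floor on at least 2 arrays were tested, and 69.1% to 71.6% of the 22746 lay above it on each array. With limma 3.58.1 in R 4.3.3, a model with a mean for each genotype was fitted to the 8 arrays (lmFit and eBayes with an intensity trend, 4 residual and 3.43 prior degrees of freedom). The contrast was clf-28 minus swn-7, with the double mutant minus wild type as context. Two-sided p-values were adjusted over all tested probe sets by Benjamini-Hochberg, with 0.05 as the threshold, and the fit was tested on simulated data. SE is limma's standard error. Where 1 or both arrays of the lower genotype were at the floor, the fold is only a bound ("at least"), and bounds are not ranked. The number of arrays limits the precision.

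The platform's annotation has 1 symbol for 13513 probe sets, more than 1 for 503 and no entry for 8730, and RefSeq tables (TAIR10.1) matched 9527 of 9532 such probe sets among those tested. Without a build for the probes no coordinates are given, and promoter sequences were not used here. Named genes were up to 15 in each direction that passed without overlap, filled to 10 with the lowest p of those at least 2-fold apart without overlap, then the 3 members of each list with the smallest adjusted p. Of a gene's probe sets, the brightest was used. Members, lists and rules were chosen with earlier results of these data known. The interaction given at the end and the genes with a symbol in the 2-fold sets were chosen after seeing the values. Alternatives were other floors, scalings, filters, eBayes settings and array sets, the replicate number as a block, and leaving out each array, which takes the lone array left to vary as other genotypes do.

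The labels do not say whether the replicate numbers pair samples, and the main fit did not pair them. The deviations of same-numbered clf-28 and swn-7 arrays correlated at 0.22, the highest of the 6 pairs of genotypes, which ranged from -0.08 to 0.22. Only 2 numbers exist, so these values do not settle whether same-numbered arrays belong together. Counts with the replicate number as a block are given below.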

Additional observations from a re-analysis of the deposited data

Results flagged for a closer look

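For 4 of the 8 named genes called between clf-28 and swn-7, the log2 level of the double mutant departed from the sum of both single-mutant differences from wild type. The measure is the double mutant minus clf-28 minus swn-7 plus wild type, a test added after the values were seen, and it uses the clf-28 and swn-7 arrays that chose the genes. In the double mutant, age and genotype cannot be told apart, and values at the floor enter the measure. The departure was -3.74 for SWEET10 (SE 0.27, limma adjusted p = 9.96e-05), -3.38 for AT5G39520 (SE 0.48, limma adjusted p = 0.00210), -2.81 for AT3G19550 (SE 0.30, limma adjusted p = 5.89e-04) and -2.74 for AT3G53250 (SE 0.32, limma adjusted p = 9.36e-04). Their sizes depended on the floor and the arrays: over the 23 settings run they spanned -5.76 to -2.91 for SWEET10, -3.78 to -2.61 for AT5G39520, -3.03 to -2.05 for AT3G19550 and -8.72 to -1.40 for AT3G53250. These 4 genes passed in each of the 23 settings, and 5378 of all tested probe sets, 31.0%, passed. The other 4 did not pass: AT1G09500 (0.26, limma adjusted p = 0.542), AT5G39220 (0.55, limma adjusted p = 0.277), AT1G03710 (0.70, limma adjusted p = 0.0693, though it passed in 6 of the 23 settings) and AT3G13672 (0.13, limma adjusted p = 0.694, with a pass in 1 setting). Over all 18 called probe sets 10 passed. Where the other genotypes are at or near the floor, the measure largely repeats a single mutant's difference from wild type. For SWEET10, clf-28 minus wild type was log2 3.91, and for AT3G53250, swn-7 minus wild type was 2.40. No conclusion is drawn from how often the called probe sets passed.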

How the results depend on the processing

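The number of limma calls between clf-28 and swn-7, 18 with 17 higher and 1 lower in clf-28, depended on the fit. It was 38 (37 higher) with a constant of 16 added in place of the floor, 33 (32 higher) for probe sets above the floor on both arrays of clf-28 or of swn-7, 30 (29 higher) for those above it on 2 of the 4 arrays, and 30 (29 higher) with robust eBayes. It was 11 (11 higher) with a minimum change of 1.5-fold, all among the 18. Without the double-mutant arrays it was also 11 (11 higher), of which 7 were among the 18. With no floor 19 were called and with no filter on dim probe sets 24, and only 10 of the 18 were kept in each. The number was 0 with the 4 clf-28 and swn-7 arrays alone. With the replicate number as a block, 11 were called, 11 higher and 0 lower, all among the 18. Leaving out single arrays gave 3 to 24 calls, of which 3 to 22 were higher and 0 to 2 lower. Omitting swn-7 replicate 2 gave 3 and swn-7 replicate 1 gave 5; for clf-28, replicate 2 gave 5 and replicate 1 gave 11; for the double mutant, replicate 2 gave 12 and replicate 1 gave 11. Omitting wild type replicate 1 or 2 gave 24 and 23, with 14 of the 18 kept in each. Against wild type, clf-28 and swn-7 had 584 and 806 calls when wild type replicate 2 was omitted, and 21 and 0 with both, where 2117 probe sets had an unadjusted limma p below 0.05 for swn-7. Calls lower in clf-28 numbered 4 with no filter, 2 with a floor of 20 and without the wild-type arrays, and 0 with a floor of 5, no floor, a 1.5-fold minimum, the 4 arrays alone or without the double mutant. The double mutant minus wild type gave 3528 calls with a 1.5-fold minimum, against 8089. The 2-fold sets held 238 to 362 higher and 74 to 125 lower probe sets with 1 of the 4 arrays left out. The cause of these changes was not tested.

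Small differences changed sign. BZIP53 was -0.0056 with equal medians, -0.0028 with equal medians and no organelle probe sets, and -0.086 to 0.19 with arrays left out. AT4G34270 was -0.045 with equal medians, -0.043 with equal medians and no organelle probe sets, -0.015 with quantile normalization and -0.16 to 0.19 with arrays left out. PEX4 was -0.24 to 0.069 and nad5 -0.083 to 0.38 with arrays left out, and nad5 was -0.013 with quantile normalization. With a floor of 20 the departure from additivity was -0.35 for AT1G09500 and -0.53 for AT3G13672 (limma adjusted p = 0.0322). Over all settings of single genes, 1905 values kept their direction and side of the threshold, 151 no longer passed, 45 newly passed and 12 changed sign.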
